A study of Sus scrofa with 48 samples.

Results

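Vesicle coats and Rab GTPases are the machinery that moves proteins and membrane between the compartments of a cell. The members were the genes whose name in the array annotation starts with SEC, ARF, RAB or SSR and a digit, or with TMED or SAR1, or is one of the named subunits of the COPI coat. This rule found 209 probes for 86 genes, out of 60306 probes and 9245 named genes on the array, and each gene was represented by its brightest probe. Of the 86 genes, 77 had a brightest probe that passed the authors' spot filter and were tested. The other 9 (SEC23B, TMED7-TICAM2, SEC14L3, RAB4B, RAB11B, RAB3D, RAB33A, RAB17 and RAB27B) have no test.

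Proteins made on the endoplasmic reticulum (ER) enter it through the SEC61 channel and leave it in vesicles covered by the COPII coat, whose assembly is started by the small GTPase SAR1. The COPI coat, recruited by ARF GTPases, carries material back from the Golgi, p24 proteins (the TMED family) act as cargo receptors in both directions, and Rab GTPases mark each membrane and guide vesicles to their target. In fat cells this traffic carries lipoprotein lipase and adiponectin out of the cell and brings the glucose transporter GLUT4 to the surface in response to insulin.

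The tissue was perirenal fat from 48 castrated male Large White pigs aged 132 days, 12 in each combination of diet and line. Pigs ate freely from a diet rich in fat and fiber (HF) or from one rich in starch and low in fat and fiber (LF), made to give the same energy, and came from a line selected for low residual feed intake (RFI), which eats less than predicted for its growth, or from a line selected for high RFI. RNA of each pig was hybridised to 1 one-colour array, so that each value belongs to a separate animal. Values are log2 signals minus the median of the array, a scale on which different probes are not compared with each other. The 6 adipocyte markers found (ADIPOQ, FABP4, PLIN1, LPL, CIDEC and LIPE) were well above background on all 48 arrays, whereas the kidney marker SLC12A1 was well above background on 0 arrays. Other markers from outside fat were not absent. The muscle genes ACTA1, MYH7 and CKM and the adrenal genes STAR and CYP11A1 were well above background on all 48 arrays. For MYH1 the number was 46, for CYP17A1 11 and for MYH2 7.

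The sequences of the probes show what was measured for the members with the clearest differences. Of the 60 bases of each probe, 30 are given 5′ to 3′ as in the array files, and they are shown because SEC31A and SEC31B, and likewise SAR1A and SAR1B, are close relatives whose signals have to be told apart. Capitals mark the longest run of bases that the 2 probes of a pair have in common.
SEC31B (bases 31 to 60): aatgtgcaataaagctGCTTTAAtttggtt
SEC31A (bases 3 to 32): gggttcactataGCTTTAAgactgagcctt
SAR1A (bases 1 to 30): TGAAGaaaaactccgtgagatatttgggct
SAR1B (bases 10 to 39): tccagactacattTGAAGcactttttaaca
TMED5 (bases 1 to 30): cgccgtattaaatgagcagtgagtactgca
SEC22B (bases 1 to 30): cctatctgttggcccctgtagaaagttagc
RAB3A (bases 1 to 30): tccccccaggagatgtcatgacaacactac
RAB37 (bases 1 to 30): aggctgctccgggcctttagcatttgtgta
The SEC31 pair had 7 bases in a row in common and the SAR1 pair 5. In 14 pairs of related members (SEC24A and SEC24B, RAB1A and RAB1B and others) the longest common run was 7 bases. Over all 2926 pairs of tested members it was 12, so no member's value came from a probe that repeats another member's probe. Whether a probe also binds the transcript of a close relative cannot be read from probes compared with each other, and was not tested.

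All calls among the members were between diets. A member was called when its raw p was under 0.01, its fold change over 1.1 and its Benjamini-Hochberg (BH) adjusted p over all 38142 probes under 0.08 in limma. On this rule 19 of the 77 tested members were lower in HF than in LF pigs and 3 were higher. Among the 7221 named genes tested, 19.3% were called lower and 6.41% higher, so that the 24.7% of members called lower lay a little above, and the 3.90% called higher a little below, the share of all genes. The median difference between diets was -0.10 log2 units over the members and -0.05 over all named genes, and 59 of the 77 members lay below 0, as did 63.3% of all named genes. In bulk tissue, fewer cells of a type and less RNA per cell cannot be told apart.

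The falls were unevenly spread over the classes. Among coat subunits, ARF GTPases, p24 receptors, ER-entry genes and other SEC genes, 15 of 43 tested members fell (34.9%) and 0 rose. Among Rab GTPases and the proteins named for binding them, 4 of 34 fell (11.8%) and 3 rose (8.82%). Of all named genes, 19.3% fell and 6.41% rose. The direction of small differences depended on the scaling of the arrays. When arrays were centred on spike-in control probes instead of on their median, the median of all named genes moved from -0.05 to 0.08. Only 4 members (RAB3A, SEC22B, SEC31B and TMED5) were then still called lower and 9 were called higher. Of all named genes, 4.13% were called lower and 22.0% higher on that scaling. The share of falls among called members was 86.4% as reported, 66.7% after normexp and quantile normalization, 68.4% after quantile normalization alone and 30.8% after spike-in centring. Relative to the median of all named genes, the members had a median of -0.05, a value that by construction a shift of whole arrays cannot change. Quantile normalization did change it, to -0.037 with normexp and -0.034 without it.

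**Figure D1:**
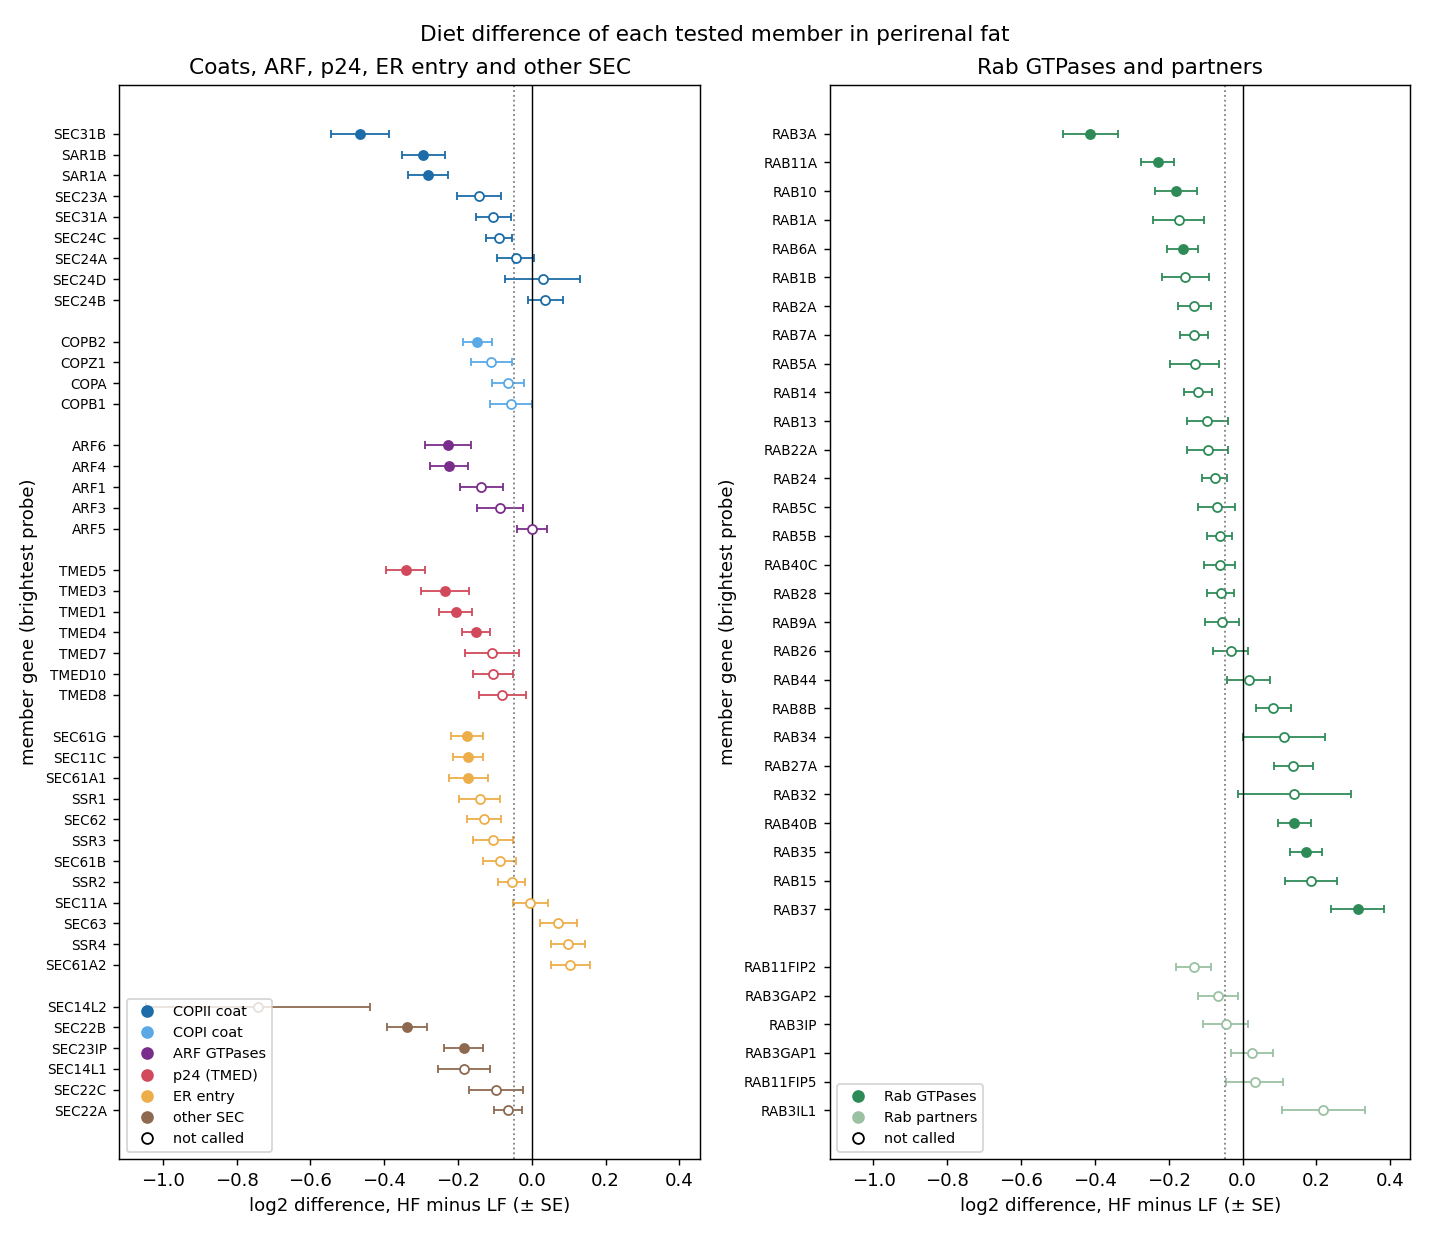
Log2 difference between HF and LF pigs (24 against 24) for each of the 77 tested members, grouped by class, with bars of 1 SE; filled points were called, the solid line is 0 and the dotted line is the median of all named genes (-0.05), both of which depend on the scaling of the arrays. Filled points lie to the left in every class but the Rab GTPases, where 3 lie to the right, and the Rab partners, which have none.

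The COPII coat, which shapes the vesicles that leave the ER, showed the largest called fall of any member. SEC31B, an outer-coat subunit, ranged from 3.33 to 4.61 in LF pigs (median 4.12) and from 3.14 to 4.0 in HF pigs (median 3.62). All 24 HF pigs were under the mean of the LF pigs, and 16 of the 24 LF pigs lay above every HF pig. The difference was -0.46 ± 0.078 (SE), or 1.38-fold lower in HF pigs (BH p = 1.86e-05, limma), and all 3 probes of the gene were called lower. Its close relative SEC31A, the other outer-coat subunit of this kind, differed by -0.10 ± 0.048 and was not called (BH p = 0.0891).

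SAR1A and SAR1B, the GTPases that start COPII assembly, fell together. SAR1A ranged from 2.49 to 3.31 in LF pigs (median 2.73) and from 2.09 to 2.84 in HF pigs (median 2.49), a difference of -0.28 ± 0.054 (BH p = 0.00013, limma). SAR1B ranged from 2.1 to 3.15 in LF pigs (median 2.40) and from 1.80 to 2.47 in HF pigs (median 2.14), a difference of -0.29 ± 0.058 (BH p = 0.000169, limma). For each gene 23 of 24 HF pigs were under the mean of the LF pigs, and all 5 probes of SAR1B were called lower. Replicate 3 of the LF high RFI group was the highest pig for both genes. The inner-coat and cargo-binding subunits were not called. SEC23A, which joins SEC24 in the inner coat and activates the GTPase activity of SAR1, differed by -0.14 ± 0.060 (BH p = 0.0615), and 2 of its 5 probes were called lower. The 4 SEC24 proteins, which select cargo, differed by -0.09 (SEC24C), -0.04 (SEC24A), 0.03 (SEC24D) and 0.04 (SEC24B). The probe of SEC23B was well above background on 3 of the 48 arrays. SEC16A, the scaffold of ER exit sites, is written in another letter case in the annotation and so is no member, and differed by -0.0046 ± 0.035. Under spike-in centring neither SAR1 gene was called.

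The COPI coat had 4 members, all below 0, of which 1 was called lower (25%, against 19.3% of all named genes). COPB2, a subunit of the cage of the coat that binds cargo, ranged from 3.32 to 3.86 in LF pigs (median 3.61) and from 3.20 to 3.68 in HF pigs (median 3.41). The difference was -0.15 ± 0.038 (BH p = 0.0031, limma), with 20 of 24 HF pigs under the mean of the LF pigs. Its 4 probes did not move as one, since the dimmest differed by 0.09, and the call was lost when the 4 probes were averaged (-0.08). It was also lost with the 75th percentile of the processed signal (-0.13), after quantile normalization with normexp (-0.07) or without it (-0.08), and after spike-in centring (-0.02). COPZ1, COPA and COPB1, the other coat subunits measured, differed by -0.11, -0.06 and -0.06 and were not called. Delta-COP, spelled Arcn1 in the annotation and therefore outside the rule, fell by 0.27 ± 0.054 (BH p = 0.000194, limma), and a brighter probe spelled copz1 fell by 0.16 (BH p = 0.000114). The probe spelled CopG was well above background on 5 arrays and was not tested.

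Of the ARF GTPases, 2 of 5 fell (40%, against 19.3% of all named genes). ARF6, which works at the plasma membrane and in endosome recycling, ranged from 0.85 to 1.66 in LF pigs (median 1.09) and from 0.43 to 1.24 in HF pigs (median 0.92), a difference of -0.23 ± 0.062 (BH p = 0.00465, limma). ARF4, which works at the Golgi and the compartment between ER and Golgi, ranged from 4.95 to 5.46 in LF pigs (median 5.17) and from 4.57 to 5.32 in HF pigs (median 4.96). Its difference was -0.22 ± 0.052 (BH p = 0.000955, limma), and 12 of 24 HF pigs lay below every LF pig. The dimmer probes of ARF4 differed by -0.22 (called), -0.19, -0.03 and -0.08 (not called). ARF1 and ARF3 differed by -0.14 and -0.09 without being called, and ARF5 by 0.0017. The call of ARF4 was lost after quantile normalization (-0.14) and that of both genes after spike-in centring (-0.10 each).

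By the rule as written, the p24 cargo receptors were the class with the highest share of falls, 4 of 7 tested (57.1%, against 19.3% of all named genes). All 7 lay below 0. The p24 genes spelled Tmed2 and tmed9 in the annotation, outside the rule, differed by -0.15 and -0.14 and were not called. The order of the classes depends on letter case, since Arcn1 and copz1 of the COPI coat were called lower. TMED5 ranged from 2.22 to 2.82 in LF pigs (median 2.53) and from 1.82 to 2.55 in HF pigs (median 2.26). In HF pigs it was 1.27-fold lower, with a difference of -0.34 ± 0.052 (BH p = 4.49e-06, limma), and 23 of 24 HF pigs were under the mean of the LF pigs. TMED1, a p24 protein of the gamma subfamily, ranged from 2.97 to 3.53 in LF pigs and from 2.68 to 3.37 in HF pigs, a difference of -0.21 ± 0.044 (BH p = 0.000428, limma). TMED3 differed by -0.24 ± 0.065 (BH p = 0.00512, limma), although replicate 12 of the HF high RFI group, at 1.09, was the highest of all 48 pigs. TMED4 differed by -0.15 ± 0.039 (BH p = 0.00257, limma). All 3 probes of TMED5 and all 3 of TMED3 were called lower. TMED7, TMED10 and TMED8 differed by -0.11, -0.11 and -0.08 and were not called. Of the 4 falls, that of TMED5 alone was called after spike-in centring, and that of TMED4 was also lost with the 75th percentile of the processed signal and after quantile normalization with or without normexp.

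At the entrance to the ER, 3 of 12 members fell (25%) and 0 rose, against 19.3% and 6.41% of all named genes. SEC61G, the gamma subunit of the SEC61 channel, ranged from 3.73 to 4.28 in LF pigs (median 3.98) and from 3.54 to 4.02 in HF pigs (median 3.80), a difference of -0.18 ± 0.043 (BH p = 0.00151, limma). SEC61A1, which forms the pore of the channel, differed by -0.17 ± 0.053 (BH p = 0.0114, limma), and 2 of its 4 probes were called lower. SEC11C, a catalytic subunit of the signal peptidase that cuts signal peptides, differed by -0.17 ± 0.041 (BH p = 0.00139, limma), whereas SEC11A, the other catalytic subunit, differed by -0.0041 ± 0.047. SEC61A2, SSR4 and SEC63 lay above 0, at 0.10, 0.10 and 0.07, without being called. The calls of SEC61G, SEC61A1 and SEC11C were lost after quantile normalization, with or without normexp, and after spike-in centring. Under the same 3 scalings SEC61A2 and SSR4 were called higher, and SEC63 was called higher after spike-in centring.

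Among the remaining SEC genes, 2 of 6 fell (33.3%, against 19.3% of all named genes). SEC22B, a SNARE protein that fuses vesicles travelling between ER and Golgi, ranged from 3.01 to 3.71 in LF pigs (median 3.31) and from 2.56 to 3.29 in HF pigs (median 3.01). All 24 HF pigs were under the mean of the LF pigs and 12 of them below every LF pig. The difference was -0.34 ± 0.054, or 1.26-fold lower (BH p = 8.19e-06, limma), with each of its 3 probes called lower. SEC23IP, a protein of ER exit sites that binds SEC23, differed by -0.18 ± 0.053 (BH p = 0.00697, limma), and its dimmer probe by -0.11 without being called. SEC14L2, a lipid-binding protein that is no part of a coat and is named after its values were seen, had the widest spread. It ranged from -2.23 to 3.28 in LF pigs (median -1.32) and from -2.34 to 0.09 in HF pigs (median -1.46), and its difference of -0.74 ± 0.30 was not called (BH p = 0.0576). Without the 3 LF arrays least like the rest it was -0.38 (BH p = 0.221, limma).

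**Figure D2:**
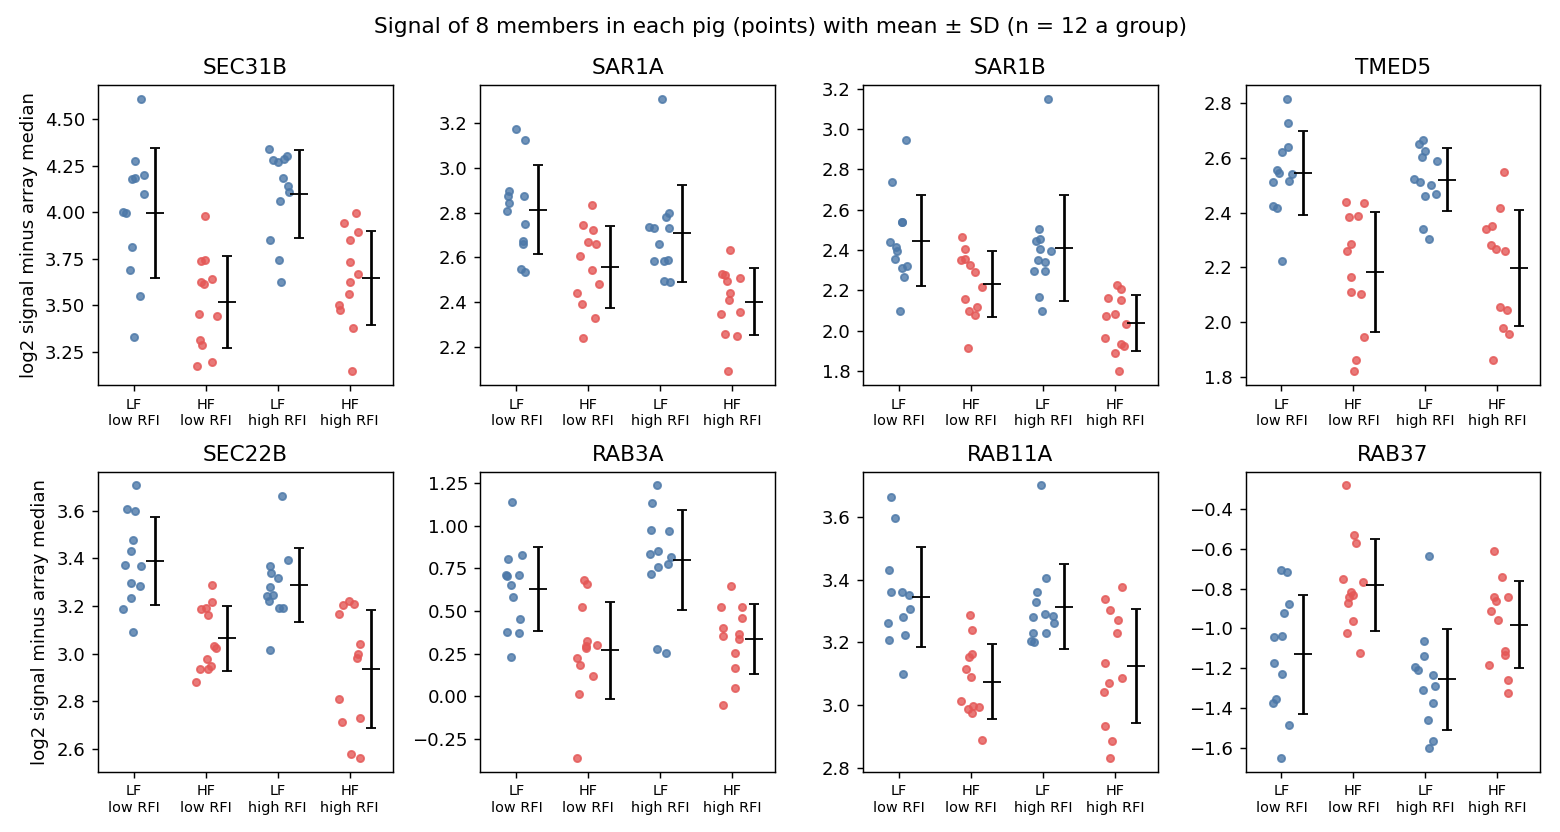
Log2 signal minus array median of 8 members in each of the 48 pigs, by diet and line, with the mean and SD of the 12 pigs of a group beside the points. HF pigs sit lower than LF pigs of the same line in the first 7 panels and higher for RAB37, and the groups overlap in every panel.

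The Rab GTPases moved in both directions. Of 28 tested, 4 fell (14.3%, against 19.3% of all named genes) and 3 rose. The largest fall was that of RAB3A, a Rab of regulated exocytosis, which ranged from 0.23 to 1.24 in LF pigs (median 0.74) and from -0.36 to 0.68 in HF pigs (median 0.31). All 24 HF pigs were under the mean of the LF pigs and 16 LF pigs lay above every HF pig. RAB3A was 1.33-fold lower in HF pigs, a difference of -0.41 ± 0.074 (BH p = 4.4e-05, limma), and its 4 probes were all called lower. RAB11A, of the recycling endosome, ranged from 3.1 to 3.70 in LF pigs (median 3.29) and from 2.83 to 3.38 in HF pigs (median 3.09). Its difference was -0.23 ± 0.045 (BH p = 0.000133, limma), 13 of 24 HF pigs lay below every LF pig, and all 7 of its probes were called lower, from -0.23 to -0.16.

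RAB10, which brings GLUT4 vesicles to the surface of fat cells, ranged from 1.18 to 2.0 in LF pigs (median 1.64) and from 1.03 to 1.88 in HF pigs (median 1.40). Its difference was -0.18 ± 0.057 (BH p = 0.0139, limma), and 1 of its 2 probes was called. RAB6A, a Golgi Rab whose probe is also annotated to its near copy RAB6C, differed by -0.16 ± 0.041 (BH p = 0.00244, limma), with 23 of 24 HF pigs under the mean of the LF pigs. RAB6A, RAB11A and RAB10 were not called after spike-in centring, and RAB10 was also not called after normexp and quantile normalization (-0.15).

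RAB37, a Rab of regulated secretion, was the member with the largest rise. It ranged from -1.65 to -0.64 in LF pigs (median -1.22) and from -1.32 to -0.28 in HF pigs (median -0.85), with 22 of 24 HF pigs over the mean of the LF pigs. The difference was 0.31 ± 0.072, or 1.24-fold higher (BH p = 0.000914, limma). RAB35, a Rab of fast endosome recycling, rose by 0.17 ± 0.044 (BH p = 0.0027, limma), with 22 of 24 HF pigs over the mean of the LF pigs. Its second, dimmer probe differed by -0.03, and the call was lost when both were averaged (0.07). RAB40B, a Rab that acts with a ubiquitin ligase, rose by 0.14 ± 0.046 (BH p = 0.0162, limma), a value only just past the fold limit.

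By route, the 4 tested Rabs of the ER and Golgi all lay below 0, with a median of -0.16 (RAB1A -0.17, RAB6A -0.16, RAB1B -0.15 and RAB2A -0.13). Of these only RAB6A was called as reported, and RAB1A was called too with slide or replicate number as a block. Of the 8 Rabs of early and recycling endosomes 6 lay below 0 (median -0.08), with RAB11A called lower and RAB35 higher. Of the 9 Rabs of exocytosis and the plasma membrane 5 lay below 0 (median -0.03), with RAB3A and RAB10 called lower and RAB37 and RAB40B higher. None of the 5 Rabs of late endosomes and lysosomes was called by the full rule (median -0.05), but RAB7A, their best known member, differed by -0.13 ± 0.038 (BH p = 0.0072, limma) and missed the limit on the fold change alone. Without that limit 24 members were called lower, and 22.0% of all named genes. The 6 Rab partners, such as RAB11FIP2 (-0.13) and RAB3IL1 (0.22), had no call by limma, a median of -0.0095 and 3 members on each side of 0.

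The other genes of the same routes, taken from lists written with earlier results of these data known, stood as follows on the reported scaling. Spike-in centring moved the median of all named genes from -0.05 to 0.08. Such a shift moves every listed gene upward, so the side of 0 of small differences depends on the scaling. Of 27 tested partners of early secretion, all lay below 0 and 12 were called lower, with a median of -0.14, where 63.3% of all named genes lay below 0 and 19.3% were called lower. They included 7 subunits of the TRAPP complex, which tethers vesicles and activates RAB1 (TRAPPC4 fell by 0.32 ± 0.052, BH p = 1.21e-05), PREB, which loads SAR1 with GTP (-0.30 ± 0.082, BH p = 0.00422), and KDELR2, which returns ER proteins from the Golgi (-0.24 ± 0.057, BH p = 0.00136). Of 8 genes that target proteins to the ER, 2 fell (SRP14, -0.20, and SPCS3, -0.14). Of 15 clathrin, adaptor and retromer genes, 3 fell (CLTA, VPS26B and VPS29, from -0.24 to -0.19), a share close to that of all named genes. Of 16 ER chaperones and stress genes, 2 fell (CANX, -0.21, and P4HB, -0.15), 1 rose (HERPUD1, 0.31), and the chaperone HSPA5 differed by -0.12 without being called, so that the share that fell was under that of all named genes.

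Of 11 genes that switch Rabs on or off, 2 fell and 1 rose, where 19.3% of all named genes fell and 6.41% rose. DENND4C, which activates RAB10, fell by 0.15 ± 0.040 (BH p = 0.00517, limma), and TBC1D20, which switches RAB1 off, fell by 0.23 ± 0.085 (BH p = 0.0317, limma). TBC1D1, a GTPase-activating protein for the Rabs of GLUT4 vesicles, rose by 0.31 ± 0.050 (BH p = 9.72e-06, limma).

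Some markers of cell types moved with diet beside these results. Of all named genes, 6.41% were called higher and 19.3% lower. Of 7 tested macrophage markers 5 were called higher in HF pigs (C1QA, C1QB, C1QC, CD163 and AIF1), with a median difference of 0.70. Their mean level per pig, relative to the mean of all pigs, ran from -0.99 to 1.25 in HF pigs and from -1.17 to 1.03 in LF pigs. Of 6 adipocyte markers 1 was called lower (CIDEC, -0.24), a share close to that of all named genes, and the median was -0.13. Of 4 T cell markers 1 was called higher (CD3G, 0.34). None of the endothelial (5 tested), fibroblast (5), muscle (4), adrenal (2) or erythrocyte (1) markers was called by limma, and no B cell marker passed the spot filter. The part of these cells in the differences of the members was not tested.

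The difference between diets was seen in both lines. In the low RFI line the median over the 77 members was -0.09, with 16 called lower and 2 higher in the fit of all 4 groups, and in the high RFI line it was -0.10, with 13 called lower and 1 higher. In the same order, 12.0% and 12.4% of all named genes were called lower in these lines, and 3.09% and 3.17% higher. The sign was the same in both lines for 72 members. SEC31B differed by -0.48 and -0.45 in the low and high RFI line, TMED5 by -0.36 and -0.32, SEC22B by -0.32 and -0.35, RAB3A by -0.36 and -0.46, and RAB37 by 0.35 and 0.28. The interaction of diet and line had a raw p under 0.05 for 0 of the 77 members by limma and by the two-way analysis of variance alike, where 1.9% of named genes had one, and under 0.01 for 0 members and 0.291% of named genes. The 3 smallest were SEC24A (-0.16 ± 0.10, p = 0.103), SSR1, a subunit of the complex beside the SEC61 channel (-0.16 ± 0.11, p = 0.168), and SAR1B (0.16 ± 0.12, p = 0.184), all with a BH p of 1 after rounding. The median SE of the interaction over the members was 0.11, and that of SEC31B was -0.03 ± 0.16.

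**Figure D3:**
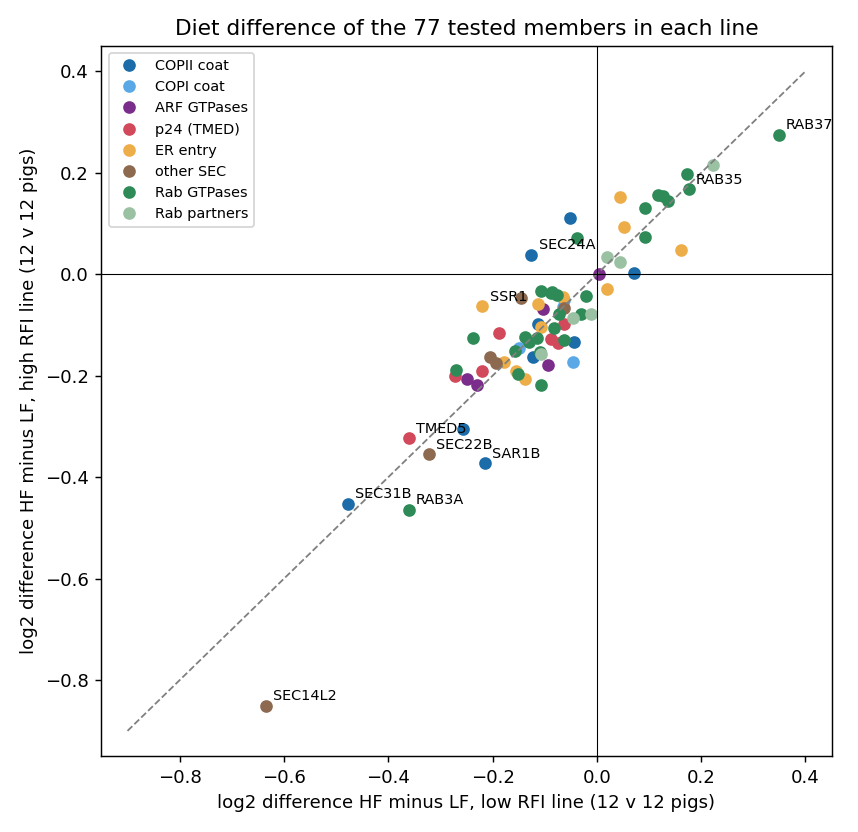
Log2 difference between HF and LF pigs in the low RFI line (horizontal) and in the high RFI line (vertical), 12 against 12 pigs each, for the 77 tested members coloured by class; the dashed line marks equal differences. Points lie along the dashed line, with 72 of 77 of the same sign in both lines on the reported scaling. Spike-in centring shifts all points together, whereas quantile normalization changes members unequally.

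The lines themselves did not differ by the rule for any member. By limma 0 of 77 members were called between low and high RFI pigs, where 3.16% of named genes were, and the same count of 0 was found by the two-way analysis of variance and within each diet (0.928% of named genes on HF and 0.36% on LF). At a raw p under 0.05 there were 10 members (13%), against 12.4% of all named genes. Line differences ranged from -0.13 to 0.22, with a median of 0.01. SEC24B had the smallest raw p, with a difference of -0.13 between low and high RFI pigs (BH p = 0.166, limma). SAR1A and SAR1B were higher in the low RFI line by 0.13 and 0.12 (BH p = 0.256 and 0.393). In the low and high RFI lines together, 3 LF pigs correlated least with the rest over all probes (mean r of 0.978 to 0.979, against 0.983 to 0.988 for the others). Without them both SAR1 genes were called, at 0.18 ± 0.049 and 0.17 ± 0.048 (BH p = 0.0293 and 0.0288, limma). Among the 3 was replicate 3 of the LF high RFI group, the highest pig for both SAR1 genes. Leaving that pig out by itself raises the difference of low minus high RFI. The diet counts were 20 lower and 4 higher, with COPB2 (-0.13) and RAB40B (0.13) no longer called. On that fit 20.2% of all named genes were called lower and 6.51% higher.

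Slides and probes were also compared. The 48 arrays lay on 6 slides, each with 2 arrays of every group, and of the 22 called members 21 had the same direction on all 6 slides. RAB10 was the exception, with 5 of 6 slides and a range from -0.41 to 0.04. The calls were made on these same arrays, so agreement between slides is partly built in. Some members without a call, such as COPZ1 and SEC31A, were also lower on all 6 slides. With slide as a block 21 members were called lower and 4 higher, the 22 called as reported together with RAB1A and SEC14L1 (lower) and RAB15 (higher). On that fit 20.4% of all named genes were called lower and 6.80% higher. Of the 45 members with several probes that passed the filter, 40 had all of them on the same side of 0, and in 0 members were probes called in opposite directions. Among the 45 were 14 called members, and 8 of these had every probe called the same way. Another probe was called lower for 8 members whose brightest probe was not, among them SEC23A, RAB1A, RAB1B, RAB2A and SEC62, a subunit for protein entry into the ER, for which 4 of 12 probes were called.

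**Figure D4:**
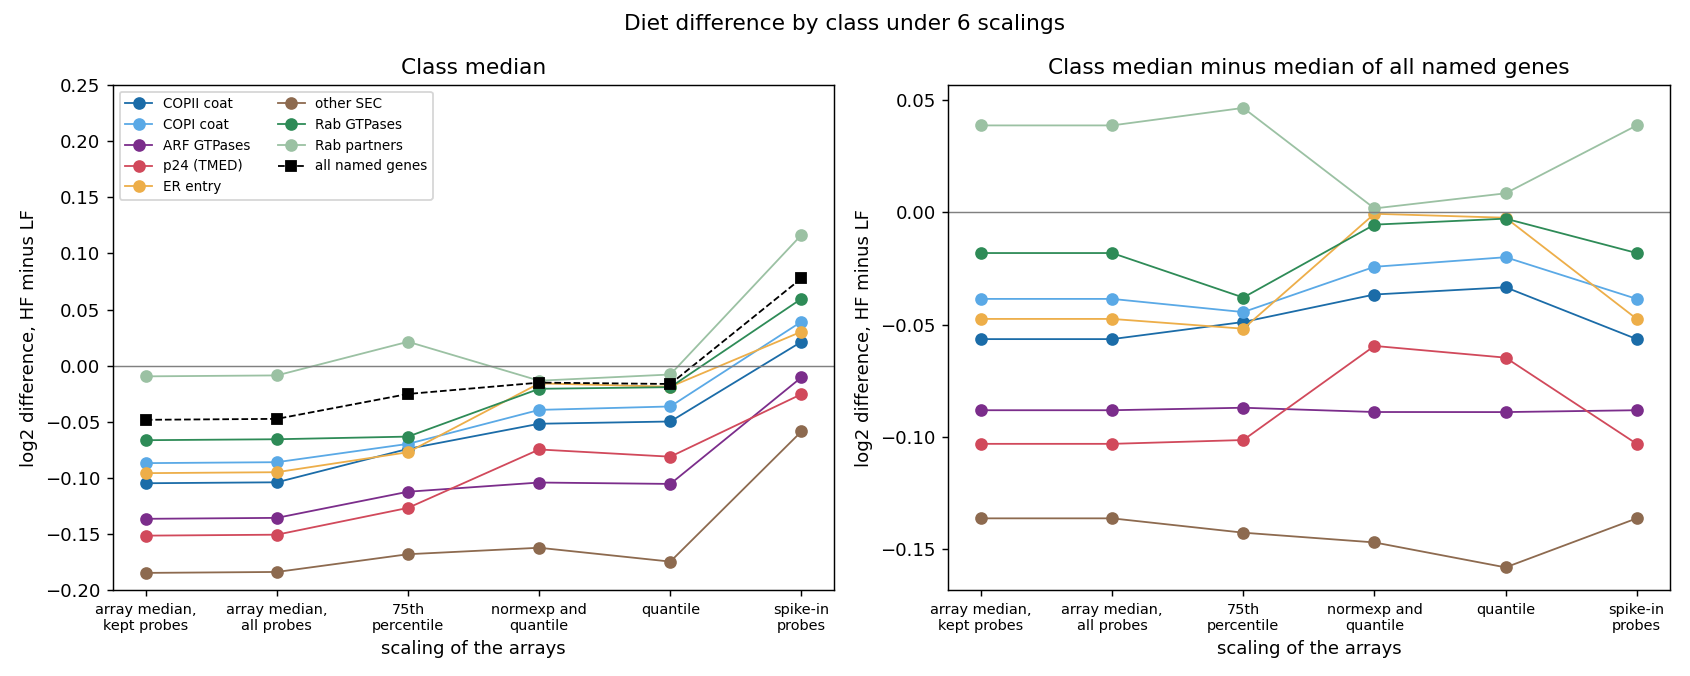
Median log2 difference between HF and LF pigs of each class under 6 scalings of the arrays, as measured (left, with all named genes as black squares) and after subtraction of the median of all named genes (right). On the left the medians of 5 classes turn positive after spike-in centring (and that of the Rab partners also at the 75th percentile), and on the right 7 of the 8 classes lie below 0 and the Rab partners above it, where the points for spike-in centring equal the reported ones by construction. On the right, quantile normalization with and without normexp brings ER entry (-0.00066 and -0.0024) and Rab GTPases (-0.0055 and -0.0028) next to 0.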

How the data were processed

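Perirenal fat of 48 pigs was measured on 48 one-colour porcine arrays (Cy3). Per the labels and the study's methods, the authors analysed the scanned images with Feature Extraction 10.7.3.1, removed spots that failed checks of brightness, evenness, saturation or outlying pixels, and deposited log2 signals with the median of each array subtracted (R 2.10.0). The deposited log2 values of 38142 probes equal the median spot intensity of the deposited scanner files after log2 and centring, within 1e-06. Row names of the deposited log2 table matched the spot with the same values for 2 entries, so names were taken from the spots. The genome build is not given in the sources used here. The flags for spots well above background are scores of 0 or 1 set by the authors' scanner software. Between 35787 and 38118 of these probes were well above background on an array, the array median was 382 to 638 intensity units, and the number of arrays limits the precision.

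Diet, line and their interaction were fitted to the 4 groups in R 4.3.3 using lmFit and eBayes of limma 3.58.1 over all 38142 probes. Calls needed a raw p under 0.01, a fold change over 1.1 and a BH p under 0.08, after the study's thresholds. On simulated data for HF minus LF over 38142 probes, 65 of 100 probes changed by 0.25 log2 units and 94 of 100 changed by 0.5 were called, with 15 unchanged ones. The members and gene lists were chosen with earlier results of these data known. Named genes were all COPI and COPII subunits, in each other class up to 3 called falls and 3 called rises, members called by line, and the 3 smallest interaction p. Other names were chosen after values were seen, as were the alternatives for letter case, the fold limit and the 3 arrays. SEC23IP was classed with the other SEC genes. Alternatives covered filters, scaling, blocks (slide, scan day, replicate), the two-way analysis of variance, thresholds and the choice of probe.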

Additional observations from a re-analysis of the deposited data

How the results depend on the processing

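Counts of members called lower and higher, 19 and 3 as reported, depended on the scaling more than on the test. They were 17 and 5 with the 75th percentile of the processed signal, 12 and 6 after normexp and quantile normalization, 13 and 6 after quantile normalization alone, and 4 and 9 after spike-in centring, where the median over the members was 0.030 instead of -0.10. In the same order, 16.2%, 13.1%, 13.6% and 4.13% of all named genes were called lower, and 9.17%, 9.42%, 9.74% and 22.0% higher. With a fold change over 1.5 the counts were 0 and 0 by limma. Within the low RFI line fitted alone they were 13 and 1, and within the high RFI line alone 12 and 2. Shares of all named genes are not given for these 2 fits. In the fit of all 4 groups 12.0% and 12.4% of them were lower and 3.09% and 3.17% higher in these lines. With letter case ignored 102 genes entered, of which 89 were tested. Of these 21 were lower and 3 higher, where 19.3% and 6.41% of all named genes were as reported, and 1 (rab12) had an interaction p under 0.01. Without the 3 arrays least like the rest 2 members were called by line. Elsewhere the line and interaction counts were 0. Over all 77 members, 59 lay below 0 as reported, 54 after quantile normalization with or without normexp, and 31 after spike-in centring. Among the 30 named genes differences changed sign, each time in a gene not called, for COPB1 (0.025) after normexp and quantile normalization, for COPA (0.0041) and COPB1 (0.020) after quantile normalization, and after spike-in centring for COPA (0.062), COPB1 (0.069), COPZ1 (0.017), SEC24A (0.082), SEC24C (0.037) and SEC31A (0.021). The cause was not tested. Of 390 values of 30 named genes under 13 alternatives, 351 kept their direction and call, 29 lost the call and 1 gained it.

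Replicate numbers were not used to pair pigs. Over 72 pairs of the same number in different groups the correlation of deviations ran from -0.271 to 0.519 (median 0.122), 16 of 48 arrays correlated best with their own number, and all 12 numbers lay within 1 slide each. With the replicate block 20 members were lower and 4 higher, with slide as a block 21 and 4, and with scan day as a block 20 and 4. In the same order, 20.9%, 20.4% and 19.5% of all named genes were called lower, and 6.83%, 6.80% and 6.51% higher.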

Other observations

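SEC14L2 separated pigs more than diets or lines did. In LF pigs the values ran from -2.23 to 3.28, and 7 of 24 LF pigs lay above the highest HF pig, at 0.09. The highest value belonged to replicate 11 of the LF high RFI group, which was also the array with the lowest mean correlation with the others (0.978). Its 2 brightest probes differed between diets by -0.74 and -0.75 and the other 2 by -0.10 and -0.08. Without that array and the other 2 least like the rest, the difference of the brightest probe was -0.38.

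The gene spelled rab12 in the annotation, a Rab outside the rule, had an interaction of diet and line of -0.16 (raw p = 0.00668, BH p = 1 after rounding, limma). Among all 38142 probes 108 had a raw p under 0.01 for the interaction and 0 had a BH p under 0.08.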
